A study of Homo sapiens with 36 samples.

Results

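The family of miR-28, miR-151a and miR-708 is represented here by hsa-miR-28-5p, hsa-miR-151a-5p and hsa-miR-708-5p, which were picked by name. They are 3 of the 509 mature miRNA names listed in the 7 tables of the series. Each table holds, for every miRNA, the authors' mean of normalised read counts over 6 small RNA libraries, 3 of an aneuploid line and 3 of its control, and it is this mean that is described here. HCT116 is a near-diploid colon carcinoma line and RPE1 a retinal pigment epithelial line immortalised with hTERT, and an asterisk marks cells that stably express histone H2B fused to GFP. The HCT116 lines were HCT116 5/4 (4 copies of chromosome 5, control HCT116) and 3 lines set against the same HCT116* libraries, namely HCT116 18/3 c2, HCT116* 3/3 c11 and HCT116* 8/3 c7, each with 3 copies of the chromosome in its name. The RPE1 lines were RPE1 5/3 12/3 (3 copies of chromosomes 5 and 12, control RPE1), RPE1* 7/3 and RPE1* 21/3 (3 copies of chromosome 7 or 21), whose RPE1* controls were separate sets of libraries. The lines marked c are single clones. By the labels the control of HCT116 18/3 c2 is HCT116*, although the line carries no H2B-GFP. In its count of detected miRNAs the study instead groups HCT116 18/3 c2 with the HCT116 control that lacks H2B-GFP. By the study's methods RPE1* 7/3 had also gained chromosomes 9 and 12 on its own, and none of the gains in the RPE1 lines or in HCT116 5/4 involves the chromosomes of the family.

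A miRNA guides a silencing complex to messenger RNAs through its seed, the bases near its 5′ end that pair with the target, and miRNAs with related seeds are counted as a family. The hairpins of miR-28 and miR-151a derive from an old LINE-2 repeat, and each family member lies in an intron or within the span of a protein-coding host gene. LPP, the host of miR-28, encodes a protein of focal adhesions. PTK2, the host of miR-151a, encodes the focal adhesion kinase, and miR-151a is known for effects on cell migration. TENM4, the host of miR-708, encodes a teneurin of the cell surface, and miR-708 is known to be induced with its host under stress of the endoplasmic reticulum. Among reported targets of miR-28-5p is MAD2, a component of the spindle checkpoint.

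The hairpin of miR-28 lies on the plus strand of chromosome 3 from 188406569 to 188406654 (GRCh37, the build of the authors' mapping), in an intron of LPP, which is transcribed from the same strand. The hairpin of miR-708 lies on the minus strand of chromosome 11 from 79113066 to 79113153, in an intron of TENM4, also on the same strand. Chromosome 3 is gained in HCT116* 3/3 c11, and chromosome 11 in none of the lines. Of the 3 members 1, hsa-miR-708-5p, matched an entry in the RefSeq table of mature miRNAs (GRCh38.p14). It is shown 5′ to 3′ with its seed, bases 2 to 8, in capitals.
hsa-miR-708-5p: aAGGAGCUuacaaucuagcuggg
The other arms of the miR-28 and miR-708 hairpins are shown so that the bases common to both genes can be seen, with the longest stretch they share, 8 bases, in capitals.
hsa-miR-28-3p: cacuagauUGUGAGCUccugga
hsa-miR-708-3p: caacuagacUGUGAGCUucuag
The shared stretch starts at base 9 of hsa-miR-28-3p and at base 10 of hsa-miR-708-3p, beyond the seeds. The seeds, bases 2 to 8, are ACUAGAU in hsa-miR-28-3p and AACUAGA in hsa-miR-708-3p. They are not identical, but are alike when shifted by 1 base. Neither 3p arm, nor hsa-miR-151a-3p, was listed in the 7 tables, and their levels were not analysed here.

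The hairpin of miR-151a is on chromosome 8 within the span of PTK2, and that of its near copy miR-151b is on chromosome 14 within the span of EVL, as the RefSeq gene table of GRCh38.p14 places them, a build other than that of the files. Chromosome 8 is gained in HCT116* 8/3 c7.

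The tables summed to between 5556870 and 11221232 normalised counts and listed 273 to 434 miRNAs. Values of single libraries were not analysed here, so depth per library is unknown, no error can be attached to a table mean and no test could be made. To compare tables, means were given in ppm (parts of the summed mean of a table per 1000000). Alternatively, they were scaled by the median of ratios over the 173 miRNAs listed in all 7 with a mean of at least 10 in each. The first scale depends on a few abundant miRNAs, since hsa-miR-21-5p took 39.3% to 49.2% of the sum in 6 tables and hsa-miR-100-5p took 42.1% in RPE1* 7/3. As a check of the cell types, 7 miRNAs of colon and other epithelia together reached 2018 to 3155 ppm in the HCT116 tables against 192 to 251 in the RPE1 tables. Most of this sum was hsa-miR-200a-5p, at 1138 to 2544 ppm in the HCT116 tables, and 2 of the 7 did not separate the cell types, since hsa-miR-194-5p (16.3 to 139 ppm against 3.93 to 24.5) and hsa-miR-215 (5.71 to 23.8 against 4.64 to 7.97) overlapped. In turn, hsa-miR-204-5p, a marker of pigment epithelium, reached 380 to 1450 ppm in the RPE1 tables against at most 4.50 in the HCT116 tables. The second pigment epithelium marker, hsa-miR-211-5p, was listed at 1.98 ppm in RPE1* 7/3, 0.56 in RPE1 5/3 12/3 and 0.30 in HCT116* 8/3 c7, and was not listed in the other 4 tables.

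The most abundant member in every table was hsa-miR-28-5p. As deposited, with each table normalised on its own, its mean was 4580 normalised counts in HCT116* 3/3 c11, 3754 in HCT116 5/4, 2851 in HCT116* 8/3 c7 and 2360 in HCT116 18/3 c2. In the RPE1 tables it was 2674 in RPE1 5/3 12/3, 1871 in RPE1* 7/3 and 2846 in RPE1* 21/3. These levels placed it between rank 42 of 358 listed miRNAs in HCT116 5/4 and rank 58 of 403 in RPE1* 7/3. On the share scale it ran from 297 to 676 ppm in the HCT116 tables and from 167 to 353 in the RPE1 tables, and the ranges overlapped. The highest HCT116 table on this scale was HCT116 5/4, which does not gain chromosome 3, at 676 ppm against 512 in HCT116* 3/3 c11. With the median of ratios HCT116 5/4 was again the higher, at 3697 against 3188, and RPE1* 21/3 at 4042 and RPE1 5/3 12/3 at 3292 were above HCT116* 3/3 c11 as well. The median of the HCT116 tables was 0.56 higher than that of the RPE1 tables on the log2 scale, but with the median-of-ratios scale it was 0.31 lower (-0.31), so the direction between the cell types depends on the scale.

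The mean of hsa-miR-151a-5p was 2464 normalised counts in HCT116 5/4, the highest of the HCT116 tables. It was 1995 in HCT116* 3/3 c11 and lower, at 1670, in HCT116* 8/3 c7 and at 1554 in HCT116 18/3 c2. In RPE1 5/3 12/3 it was 2279, in RPE1* 7/3 1563 and in RPE1* 21/3 1709. On the share scale HCT116 5/4 stood apart, at 443 ppm, whereas the 3 tables on the HCT116* libraries lay close together at 195 to 223 ppm. The RPE1 tables ran from 139 to 250 ppm. The medians of the HCT116 and RPE1 tables differed by 0.039 (log2) on this scale and by -0.86 with the median of ratios, and the ranges overlapped on both. On the latter scale the 3 tables on the HCT116* libraries, at 1277 to 1388, lay below all RPE1 tables, at 1906 to 2805, while HCT116 5/4, at 2427, lay among them.

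The name hsa-miR-151b was listed beside hsa-miR-151a-5p with nearly the same values. Its mean was 98.4% of that of hsa-miR-151a-5p in RPE1* 21/3, the lowest share, and 99.5% in HCT116* 8/3 c7, the highest. Over the 7 tables the log2 ppm levels of both names had a Pearson r of 0.9999. The mature sequences of these miRNAs overlap, so reads of the chromosome 8 and chromosome 14 copies cannot be told apart in the values given for hsa-miR-151a-5p.

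Unlike the other members, hsa-miR-708-5p was listed in the RPE1 tables alone, and its level in HCT116 cells was not analysed here. Its mean was 1299 normalised counts in RPE1 5/3 12/3, 691 in RPE1* 7/3 and 1127 in RPE1* 21/3. On the share scale this was 143, 61.5 and 140 ppm, and with the median of ratios it was 1599, 842 and 1602, so RPE1* 7/3 was the lowest on both scales and the other 2 tables were alike. It was the least abundant member, at 0.49 times hsa-miR-28-5p in RPE1 5/3 12/3, 0.37 times in RPE1* 7/3 and 0.40 times in RPE1* 21/3. Among the RPE1 tables, RPE1* 7/3 was also the lowest for hsa-miR-28-5p and hsa-miR-151a-5p on both scales. Each RPE1 table has its own control libraries as well as its own line. Whether the low mean of RPE1* 7/3 lies in its line or in its controls cannot be told from a table mean.

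**Figure D1:**
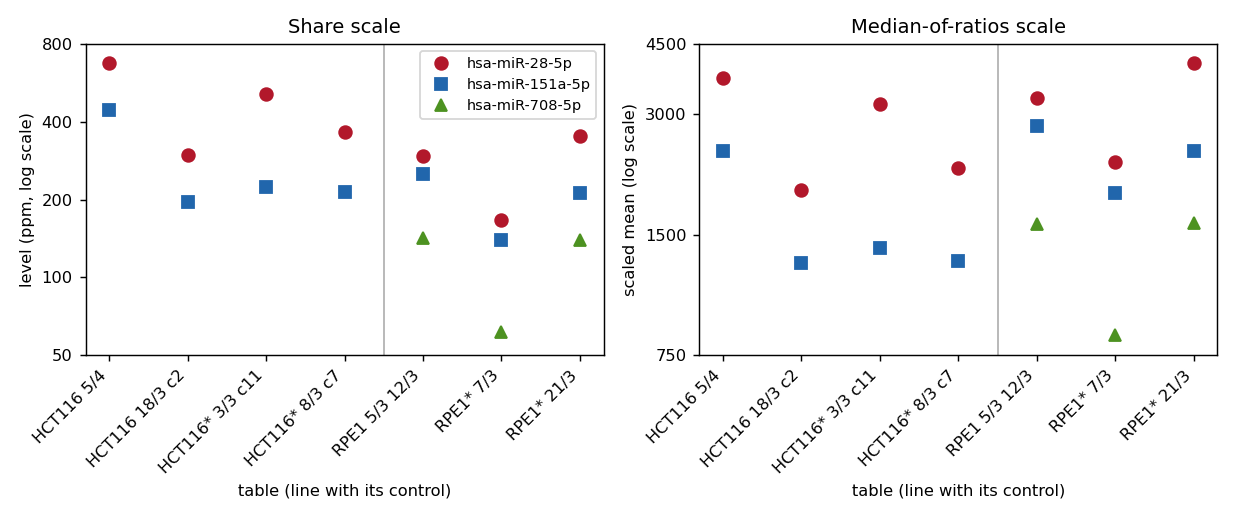
Level of hsa-miR-28-5p (circles), hsa-miR-151a-5p (squares) and hsa-miR-708-5p (triangles) in the 7 tables, in ppm of the summed mean (left) and scaled by the median of ratios (right), both on log axes. Each point is a mean over 6 libraries without an error; hsa-miR-28-5p lies above hsa-miR-151a-5p in all 7 tables, and hsa-miR-708-5p has points in the 3 RPE1 tables, lowest in RPE1* 7/3.

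The first question of dosage was whether hsa-miR-28-5p stood higher where chromosome 3 is gained. By the labels, the tables of HCT116* 3/3 c11, HCT116* 8/3 c7 and HCT116 18/3 c2 contain the same 3 HCT116* libraries. If so, and if these libraries sit at the same normalised level in each table, a difference between scaled means is a difference between the lines. Neither assumption was checked. They were scaled by the median ratio over the 266 miRNAs with a mean of at least 10 in all 3. After scaling, hsa-miR-28-5p was at 4187 in the HCT116* 3/3 c11 table, 2854 in the HCT116* 8/3 c7 table and 2608 in the HCT116 18/3 c2 table. Of these 3 tables that of the gain line was the highest, and the other 2 were closer to each other than to it. This order covers the tables on shared controls, since HCT116 5/4, with other controls and without the gain, lay above HCT116* 3/3 c11 on both scales given earlier. The ratio of the HCT116* 3/3 c11 table to the geometric mean of the other 2, centred on the median ratio of all 266, was 1.54, a log2 ratio of 0.63. A line at 1.5 times its control has a table mean that is 0.32 above that of lines at the control level on the log2 scale, and this was used as the limit for a call. In all, 30 of 266 miRNAs, or 11.3%, passed it in the HCT116* 3/3 c11 table, hsa-miR-28-5p among them, and 8 had a higher ratio. The limit was also passed over each reference by itself, at 1.60 over HCT116 18/3 c2, where 44 of 266 miRNAs (16.5%) passed, and at 1.46 over HCT116* 8/3 c7, where 30 (11.3%) passed. Because, on the same assumptions, the shared controls add the same amount to both means, the levels of the lines themselves differ by no smaller a factor than the table means. Were the other lines at the control level, which was not checked, the ratio of 1.54 would put HCT116* 3/3 c11 at 2.09 times its control. The scaled level in HCT116* 3/3 c11 was 3158 above that in HCT116 18/3 c2 and 2666 above that in HCT116* 8/3 c7, which are the table differences times 2. A table mean does not show whether a line rose above the HCT116* cells or the lines it is set against fell below them, and HCT116 18/3 c2 also lacks H2B-GFP. Each of these lines is a single clone, so gain and clone cannot be told apart.

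In the tables of the other lines on these libraries hsa-miR-28-5p was below the limit. Its ratio was 0.87 in the HCT116* 8/3 c7 table, where 11.7% of the miRNAs passed, and 0.76 in the HCT116 18/3 c2 table, where 10.2% passed. These ratios are not independent of the first, since the HCT116* 3/3 c11 table is part of their reference. Set against each other, the HCT116* 8/3 c7 table and the HCT116 18/3 c2 table differed by a ratio of 1.08.

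The second question was whether hsa-miR-151a-5p stood higher where chromosome 8 is gained. Its scaled means were 1671 in the HCT116* 8/3 c7 table, 1823 in the HCT116* 3/3 c11 table and 1717 in the HCT116 18/3 c2 table. The gain line thus had the lowest of the 3 table means, and all of them lay within a narrow range. The ratio of the HCT116* 8/3 c7 table to the other 2 was 0.95, a log2 ratio of -0.074, and 170 of 266 miRNAs had a higher one. It did not pass the limit, which 31 of 266 miRNAs (11.7%) did. With tables scaled by their summed means the log2 ratio was 0.029, so its sign depends on the scale, and it was short of the limit on both. The limit supposes that all reads of a miRNA come from the gained chromosome. Reads of the chromosome 14 copy cannot be told apart here, so a gain of chromosome 8 could stay under the limit. In the HCT116* 3/3 c11 table, where chromosome 8 is not gained, the ratio of hsa-miR-151a-5p was 1.08 and that of hsa-miR-151b 1.08, both under the limit.

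**Figure D2:**
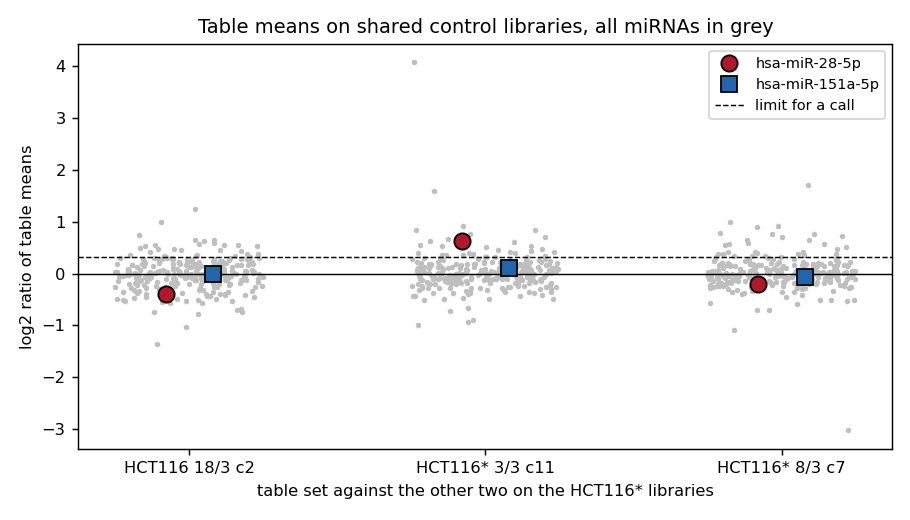
Log2 ratio of the mean in each of the 3 tables on the HCT116* libraries to the geometric mean of the other 2, for 266 miRNAs (grey points, spread sideways to be visible), with hsa-miR-28-5p as a circle and hsa-miR-151a-5p as a square. The dashed line marks the limit for a call, a log2 ratio of 0.32, which hsa-miR-28-5p passes in the HCT116* 3/3 c11 table at 0.63 and hsa-miR-151a-5p does not pass in the HCT116* 8/3 c7 table at -0.074.

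Ratios between members within a table need no scaling, and were computed after the values had been seen. The mean of hsa-miR-28-5p was 2.30 times that of hsa-miR-151a-5p in the HCT116* 3/3 c11 table, the highest of the 7. It was 1.71 in HCT116* 8/3 c7, 1.52 in HCT116 18/3 c2 and 1.52 in HCT116 5/4. In the RPE1 tables it was 1.17 in RPE1 5/3 12/3, 1.20 in RPE1* 7/3 and 1.66 in RPE1* 21/3. The last of these lay within the range of the HCT116 tables, so the cell types overlapped. Of the summed mean of the listed members, hsa-miR-28-5p made up 60.3% to 69.7% in the HCT116 tables and 42.8% to 50.1% in the RPE1 tables. In the RPE1 tables hsa-miR-708-5p added 16.7% to 20.8%. It had no value in the HCT116 tables, so these shares rest on unlike sums and do not compare the cell types.

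**Figure D3:**
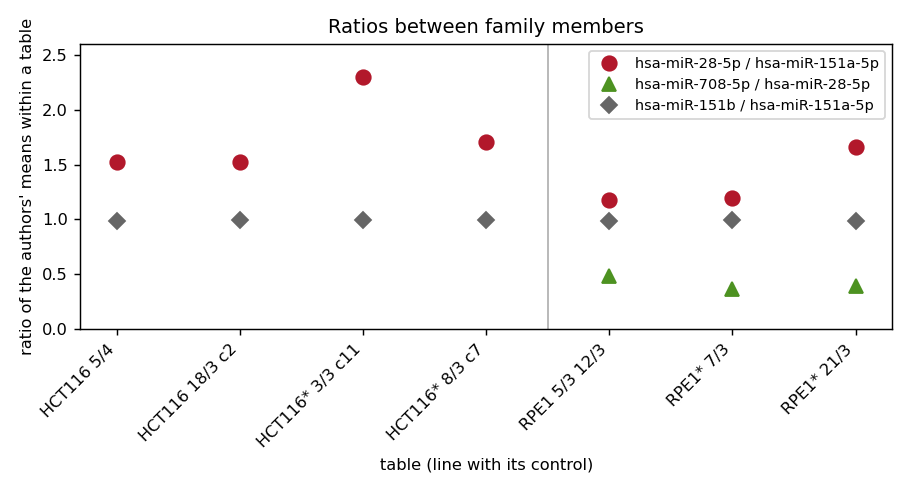
Ratios of the means of family members within each of the 7 tables, as hsa-miR-28-5p over hsa-miR-151a-5p (circles), hsa-miR-708-5p over hsa-miR-28-5p (triangles, RPE1 tables) and hsa-miR-151b over hsa-miR-151a-5p (diamonds). The circle of HCT116* 3/3 c11 is the highest at 2.30, and the diamonds stay between 0.98 and 1.00.

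The other miRNAs of the gained chromosomes were read in the same way. On chromosome 3, 12 miRNAs could be compared, of which 6 had a log2 ratio above 0 in the HCT116* 3/3 c11 table and 1, hsa-miR-28-5p, passed the limit. Of all 266 miRNAs in that table, 133 were above 0 by the scaling and 30 (11.3%) passed. The median of the 12 was 0.0043, and that of all 266 was 0 by the scaling. The next highest was hsa-miR-1224-5p at 0.17 and the lowest hsa-miR-4791 at -0.28. In between, hsa-let-7g-5p, a member of the let-7 family of growth suppressors, and hsa-miR-191-5p lay at -0.0065 and 0.017. On chromosome 8, 9 miRNAs could be compared in the HCT116* 8/3 c7 table, of which 3 were above 0 and 1, hsa-miR-3148 at 0.73, passed the limit. Among all 266 there, 133 were above 0 by the scaling and 31 (11.7%) passed. The median of these 9 was -0.11, and hsa-miR-30b-5p and hsa-miR-30d-5p of the miR-30 family were at -0.15 and -0.19. The lowest was hsa-miR-4286 at -0.44. On this chromosome hsa-miR-151a-5p, at -0.074, lay just above the median, though its value may include reads of the chromosome 14 copy.

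**Figure D4:**
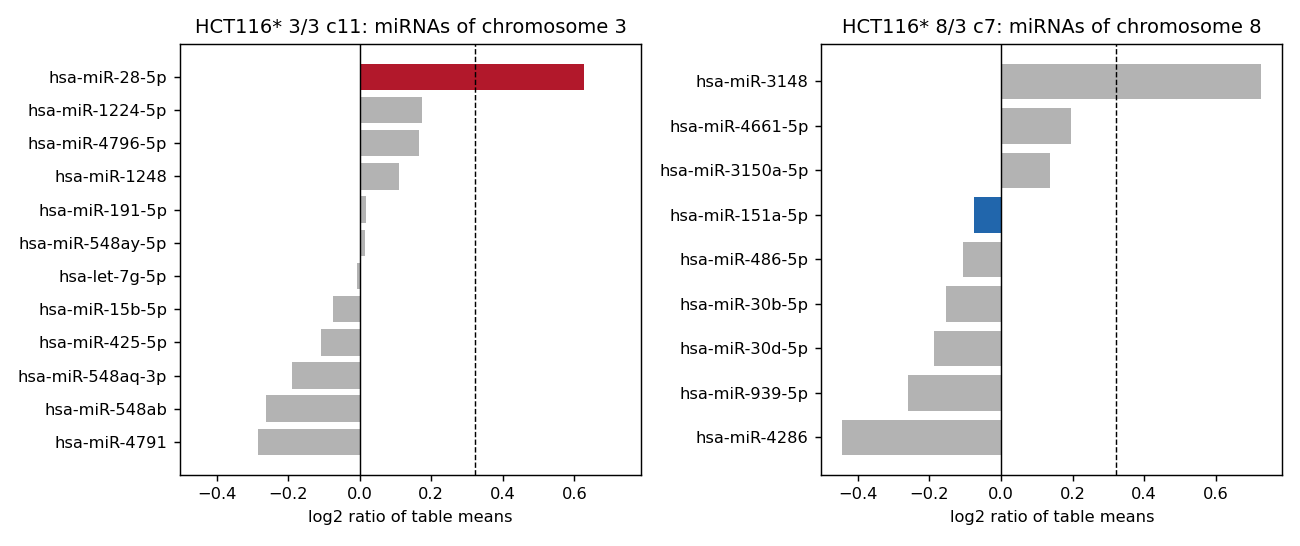
Log2 ratio of table means for the 12 miRNAs of chromosome 3 in the HCT116* 3/3 c11 table (left) and the 9 miRNAs of chromosome 8 in the HCT116* 8/3 c7 table (right), both over the other 2 tables on the HCT116* libraries, with the dashed line at a log2 ratio of 0.32. On the left hsa-miR-28-5p (red) is the single bar past the line at 0.63, and on the right hsa-miR-151a-5p (blue) is at -0.074.

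Across the 7 tables the levels most like those of the members were sought among 173 miRNAs listed everywhere with a mean of at least 10. The points share control libraries and the scale, so r is a description. For hsa-miR-28-5p the highest Pearson r of log2 ppm levels were those of hsa-miR-186-5p at 0.93, hsa-miR-331-5p at 0.93 and hsa-miR-30b-5p at 0.92. For hsa-miR-151a-5p, with hsa-miR-151b set aside after its values were seen, they were those of hsa-miR-194-5p at 0.98, hsa-miR-106a-5p at 0.98 and hsa-miR-30b-5p at 0.97. Between hsa-miR-28-5p and hsa-miR-151a-5p r was 0.86, and 0.74 on the median-of-ratios scale, at place 14 for hsa-miR-28-5p. On the median-of-ratios scale hsa-miR-30b-5p was first for hsa-miR-28-5p with 0.83, while hsa-miR-186-5p was at place 7 and hsa-miR-331-5p at place 25. For hsa-miR-151a-5p, with hsa-miR-151b counted, hsa-miR-106a-5p was at place 10 and hsa-miR-30b-5p at place 32. There hsa-miR-194-5p fell to place 53 with 0.62.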

How the data were processed

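Small RNA was sequenced by the authors in 36 libraries, as 12 groups of 3 that the study's methods call biological replicates. Reads were trimmed at low-quality ends if required, cleared of adapters by cutadapt, and mapped to hg19 and counted per mature miRNA by mirdeep2. Each deposited mean is a normalised signal from the authors' DESeq2 run on the 6 libraries of that table, with counts brought to a common scale before averaging. The 5 other deposited columns hold the authors' own comparison (log2 fold change, standard error, statistic, p-value and adjusted p-value) and were not used.

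Single-library values were not analysed here, so the planned count model gave way to a description of table means with no test. Tables were scaled by the median ratio or by their sums. In the 3 tables on shared HCT116* libraries a log2 ratio of at least 0.32 was a call. The arithmetic was tested on simulated data. Of 509 names, 461 (90.6%) were placed on 1 chromosome by RefSeq symbols. Hairpin positions come from GENCODE on GRCh37. Named miRNAs were the members, their other arms, the extremes of the chromosome 3 and 8 lists and the 3 names most like a member, beside the cell type markers and the most abundant miRNA of each table. Of the rest, hsa-let-7g-5p, hsa-miR-191-5p and hsa-miR-30d-5p were added after their values were seen. The members and lists were chosen with earlier results of these data known. Python 3.11.15, numpy 2.4.6, pandas 2.3.3 and matplotlib 3.10.9 were used.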

Additional observations from a re-analysis of the deposited data

How the results depend on the processing

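The log2 ratio of hsa-miR-28-5p in the HCT116* 3/3 c11 table stayed between 0.54 and 0.68 and past the limit under all 5 alternatives tried. That of hsa-miR-151a-5p in the HCT116* 8/3 c7 table stayed short of the limit under its 5 alternatives and moved most with scaling by summed means, to 0.029. With a mean of at least 100, which left 150 miRNAs, 16 passed the limit in the HCT116* 3/3 c11 table and 8 in the HCT116* 8/3 c7 table, with fewer miRNAs tested, and in the former 4 miRNAs had a higher ratio than hsa-miR-28-5p. The HCT116 minus RPE1 difference of hsa-miR-28-5p was -0.31 by the median of ratios, 0.79 with the shared tables averaged first, and 0.31 to 0.96 when 1 table was left out. For hsa-miR-151a-5p the same differences were -0.86, 0.52 and -0.080 to 0.34. By the median of ratios the r of hsa-miR-186-5p with hsa-miR-28-5p was 0.77, and that of hsa-miR-194-5p with hsa-miR-151a-5p was 0.62. Leaving out RPE1* 7/3 turned the sign for hsa-miR-151a-5p. The cause was not tested. No paired analysis was possible because the values are means over all libraries of a table. For the same reason no library could be left out, and values moved by less than 0.1 on the log2 scale were taken as alike, a tolerance set after the data were seen and without an error to judge it by.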
